A study of Mus musculus with 11 samples.

Results

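Chemokine receptors are the cell surface receptors with which macs and their precursors sense chemokines, and 6 of them (Ccr1, Ccr2, Cx3cr1, Cxcr2, Cxcr4 and Ccrl2) were followed here, picked by gene name out of the 27998 genes in each of 11 single-cell count tables. The tables came from sorted macs of 5 mouse tissues, namely microglia of the brain, colonic macs (CMs), Kupffer cells of the liver (KCs), alveolar macs of the lung (AMs) and splenic macs (SMs). Each tissue gave 1 WT library (Zeb2fl/fl, CRE-negative littermates) and 1 Zeb2KO library (Zeb2fl/fl with a CRE transgene), and the liver gave 1 further WT library, of Nr1h3fl/fl KCs. Zeb2 encodes a zinc finger transcription factor, and the comparison asks what its loss does to the receptors in each mac population. The labels write the Zeb2KO genotype as Fcgr1-crexZeb2fl/fl in all 5 tissues, whereas the study's methods name Clec4f-cre for the liver and Itgax-cre for the lung, drivers that are active in KCs and in CD11c-expressing cells, and Fcgr1-cre, driven from the gene for CD64, for brain, colon and spleen. All mice were on a C57BL/6 background and 6 to 8 weeks old, no agent was given, and the number of animals behind each library was not given in the labels. By the study's account, some macs of CRE-positive mice had kept a functional copy of Zeb2 in every tissue but the brain, so the other 4 Zeb2KO libraries mix cells with and without the gene.

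Most chemokine receptors are seven-transmembrane proteins that couple to inhibitory G proteins and steer migrating cells up a ligand gradient. CCR2 is known for the exit of monocytes from the bone marrow, and CX3CR1 marks microglia, patrolling monocytes and intestinal macs, whereas KCs and AMs of the healthy adult are known to lack it. CCR1 binds inflammatory CC chemokines, CXCR2 is the main chemokine receptor of neutrophils, CXCR4 holds cells in niches rich in CXCL12, and CCRL2 is an atypical receptor that binds chemerin and does not signal through G proteins.

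On the mouse build GRCm38 (GENCODE M21), 4 of the 6 genes lie on chromosome 9. Ccr1 spans 123962124 to 123968692 and Ccr2 spans 124101950 to 124113557, in a cluster of CC receptor genes in which Ccr3 lies 70.3 kb before Ccr2. Cx3cr1 spans 119901616 to 120069879 in this annotation, an interval that overlaps other genes (Csrnp1, Gorasp1 and Xirp1 on the same strand), and Ccrl2 spans 111054486 to 111057519. On chromosome 1, Cxcr2 spans 74153989 to 74161246, with Cxcr1 30.5 kb away, and Cxcr4 spans 128588199 to 128592293. Cxcr2 and Ccr2 lie on the plus strand and the other 4 on the minus strand.

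ZEB2 is known to bind E-boxes with the core CACCT, so the promoters of the 5 receptors called changed in at least 1 tissue (all but Cxcr4) are printed from the RefSeq promoter table (GRCm38.p6, 250 bases before to 50 bases after the start site, 5′ to 3′ along the gene). Capitals mark each copy of this core on either strand, where the opposite strand reads AGGTG, and include the sixth base where the longer E-box CACCTG was complete. The regions are chr1:74153744-74154043 (plus strand) for Cxcr2, chr9:124101933-124102232 (plus strand) for Ccr2, chr9:120068247-120068546 (minus strand) for Cx3cr1, chr9:123968643-123968942 (minus strand) for Ccr1 and chr9:111057469-111057768 (minus strand) for the first of 3 Ccrl2 start sites.
Cxcr2: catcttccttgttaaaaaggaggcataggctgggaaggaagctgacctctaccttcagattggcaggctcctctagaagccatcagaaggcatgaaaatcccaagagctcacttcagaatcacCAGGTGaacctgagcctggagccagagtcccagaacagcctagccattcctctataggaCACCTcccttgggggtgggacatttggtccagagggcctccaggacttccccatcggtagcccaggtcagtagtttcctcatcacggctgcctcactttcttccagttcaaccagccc
Ccr2: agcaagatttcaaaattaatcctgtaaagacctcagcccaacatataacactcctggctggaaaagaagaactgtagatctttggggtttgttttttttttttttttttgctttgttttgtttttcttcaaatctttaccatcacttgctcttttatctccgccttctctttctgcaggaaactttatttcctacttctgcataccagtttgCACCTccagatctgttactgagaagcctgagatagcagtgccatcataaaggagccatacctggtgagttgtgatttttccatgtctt
Cx3cr1: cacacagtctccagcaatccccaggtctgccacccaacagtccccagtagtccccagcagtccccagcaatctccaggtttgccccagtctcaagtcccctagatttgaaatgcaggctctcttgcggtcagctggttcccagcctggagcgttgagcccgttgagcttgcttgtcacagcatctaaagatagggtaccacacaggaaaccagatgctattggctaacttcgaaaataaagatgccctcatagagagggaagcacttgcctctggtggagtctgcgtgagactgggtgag
Ccr1: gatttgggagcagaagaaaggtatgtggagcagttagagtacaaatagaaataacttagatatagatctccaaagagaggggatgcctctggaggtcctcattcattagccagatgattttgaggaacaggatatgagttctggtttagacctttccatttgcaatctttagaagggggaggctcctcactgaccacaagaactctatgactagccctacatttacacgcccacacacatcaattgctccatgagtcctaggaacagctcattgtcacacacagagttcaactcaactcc
Ccrl2: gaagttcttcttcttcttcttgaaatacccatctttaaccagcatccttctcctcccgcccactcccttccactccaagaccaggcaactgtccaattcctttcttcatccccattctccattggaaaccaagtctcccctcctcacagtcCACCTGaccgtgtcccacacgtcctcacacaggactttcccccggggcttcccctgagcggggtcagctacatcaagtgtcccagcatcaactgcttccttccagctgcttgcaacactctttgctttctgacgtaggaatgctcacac
All 6 receptors had a promoter in the table, 8 promoters in all, and 3 of the 6 genes held the core in at least 1 promoter. Cxcr2 held 2 copies, whose first bases lay at -126 and -68 from the start base, Ccr2 held 1 at -38, and Ccrl2 held 1, as a complete E-box, at -99 of 1 start site. These letters were not in the windows of Ccr1, Cx3cr1 and Cxcr4. The motif is common, since 51.9% of the 32851 promoters of the same length held it on either strand, 18.2% held it at least 2 times and 20.2% held the longer E-box. These matches are descriptions of the letters, and no binding was measured.

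Every library was a 10x Genomics library counted as unique molecular identifiers (UMIs, 1 per captured transcript) at the 3′ end of transcripts, and held 3097 to 7703 barcodes and 11133411 to 47400786 UMIs. Once low-quality barcodes and clusters with raised markers of other cell types were set aside, 2824 to 6974 cells and 7268799 to 42932474 UMIs per library remained, with a median of 2165 (WT SMs) to 9231 (WT CMs) UMIs per cell. Levels are UMIs summed over these cells and scaled to 1000000 UMIs (CPM), with an exact Poisson 95% interval that covers counting error only, and shares of cells carry an exact binomial 95% interval. With 1 library per genotype and tissue there is no replicate within a tissue, so a gene was called changed from its size alone, when CPM + 1 differed at least 2-fold between the libraries (log2 ratio 1 or -1 or beyond) and the higher of the 2 reached 20 CPM. Log2 ratios and folds are of CPM + 1 unless stated otherwise, which understates the differences of genes at low levels. Clusters are described where they held at least 20 cells of the library. The tissue-defining markers were highest in WT macs of their own tissue for 6 of 6 genes in brain and liver and for 5 of 6 in colon, lung and spleen, and any pair of libraries shared at most 76 barcodes. Zeb2 itself was listed at 312 to 759 CPM in the 5 WT libraries and at 477 to 1750 CPM in the libraries labelled Zeb2KO, higher in all 5. Because 3′ UMIs are also made from a transcript that lacks only an internal floxed part, these counts do not check the deletion. The genotypes of the libraries were taken from the labels. The study checked the deletion in sorted KCs and AMs by PCR of RNA and DNA and by flow cytometry of Zeb2 mRNA. It reported efficient deletion in SiglecF+ KCs and EpCam+ AMs.

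**Figure D1:**
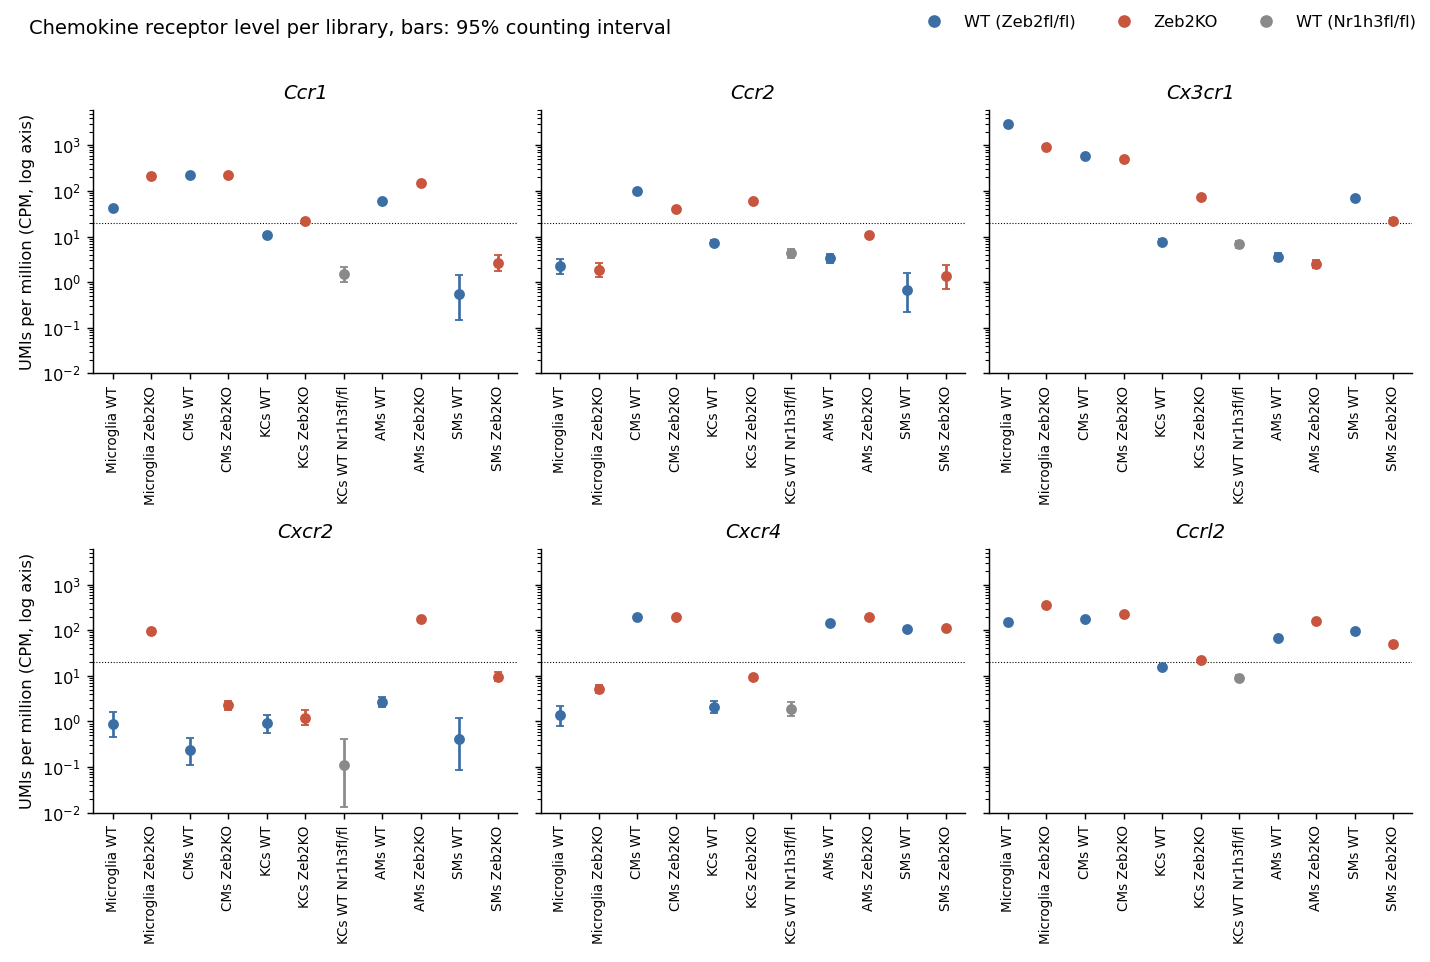
Level of each receptor in the 11 libraries, in CPM on a log axis, with points for WT (Zeb2fl/fl, blue), Zeb2KO (red) and Nr1h3fl/fl WT (grey) libraries, bars for the 95% counting interval and a dotted line at 20 CPM. Cx3cr1 reached 2928 CPM in WT microglia, and Cxcr2 passed 20 CPM in the Zeb2KO microglia and Zeb2KO AMs only.

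In WT macs the receptors had distinct tissue patterns. Ccr1, Ccr2, Cx3cr1, Cxcr4 and Ccrl2 were all above 20 CPM in WT CMs, WT AMs had Ccr1, Cxcr4 and Ccrl2 above it, WT microglia had Ccr1, Cx3cr1 and Ccrl2, WT SMs had Cx3cr1, Cxcr4 and Ccrl2, and in WT KCs none of the 6 reached 20 CPM in either library. Cx3cr1 was highest in microglia among the 6 WT libraries, and Cxcr2 stayed at or below 2.70 CPM in all 6. The levels of different genes in CPM also depend on how well each 3′ end is captured, so levels are compared for 1 gene across libraries and not between genes.

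Ccr2, the receptor for CCL2 and related monocyte chemoattractants, was higher in the Zeb2KO library than in WT in liver and lower in colon. In KCs it was at 7.20 CPM in the Zeb2fl/fl WT library (95% interval 6.14 to 8.38), at 4.35 CPM in the Nr1h3fl/fl WT library and at 60.4 CPM in the Zeb2KO library (57.3 to 63.5). The Zeb2KO KCs stood far above both WT libraries, with a log2 ratio of 2.90 (3.07 without the added 1) against the Zeb2fl/fl littermates and 3.52 against the Nr1h3fl/fl KCs. In CMs Ccr2 was at 99.3 CPM in WT (96.3 to 102) and at 39.9 CPM in Zeb2KO (37.9 to 42.0), which is 2.45-fold lower (log2 ratio -1.29). The other tissues were under the 20 CPM needed for a call: 3.32 and 10.9 CPM in WT and Zeb2KO AMs, 2.28 and 1.90 CPM in microglia, and 0.688 and 1.34 CPM in SMs. With a floor of 5 CPM, Ccr2 in AMs would be called higher (log2 ratio 1.46). WT CMs were thus the highest of the 11 libraries, Zeb2KO KCs were next and Zeb2KO CMs came after them, with no overlap of the counting intervals among these 3.

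The share of KCs with at least 1 Ccr2 UMI was 1.34% of 3873 WT cells (1.004 to 1.76), 1.69% of the Nr1h3fl/fl WT cells and 15.7% of 3774 Zeb2KO cells (14.5 to 16.9). With every cell thinned to 1000 UMIs, which evens out depth, the shares were 0.400% in WT and 4.25% in Zeb2KO. Endothelial cells left out of the same libraries, a type that should lack Ccr2, had a UMI in 3.86% of 259 cells in WT (median 6931 UMIs per cell, against 5301 in the KCs) and in 17.1% of 479 cells in Zeb2KO (median 7025, against 5833), and B cells in 0 of 143, which allows up to 2.55%, and 3.91% of 128 cells. The library-wide share in KCs was therefore no higher than that in the endothelial cells of the same library. In Zeb2KO it was above that in the B cells (1.28 to 8.88). Doublets were not called, so whether the endothelial cells carry transcripts of KCs, or can serve as a background, was not tested. The library-wide share is not read as a share of KCs that express the gene. The level in these endothelial cells, which had passed the same Clec4F sort as the KCs, was 8.17 CPM in WT and 61.9 CPM in Zeb2KO, close to the 7.20 and 60.4 CPM of the KCs. The B cells were lower than the KCs, at 0 and 18.9 CPM (9.77 to 33.02 in Zeb2KO), so the left-out types did not share 1 level. Among Zeb2KO KC clusters of at least 20 cells, however, the share ran from 1.37% to 29.5%, and the level from 3.53 to 128 CPM, so the transcript was not spread evenly over the cells.

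By cluster, Ccr2 in WT KCs was concentrated in a small group of cells that the clustering, made without any receptor or ligand gene, set apart (cluster 7, led by Mmp12, Cx3cr1, Cd63 and Ccr2). Its 50 WT cells had 259.8 CPM and held 61.5% of the Ccr2 UMIs of the library, whereas the largest WT cluster, of 2185 cells, had 1.43 CPM. In Zeb2KO KCs the same cluster had 128 CPM, but a cluster of 1905 cells found in the Zeb2KO library alone (cluster 1, led by Siglecf, Il1r2, Ddit4 and Pglyrp1) held 48.2% of the UMIs at 59.4 CPM (55.1 to 63.9). This was close to the level in the left-out endothelial cells but above that in the left-out B cells and in KC clusters 0, 4 and 5 of the same library, which had 3.53 to 7.43 CPM. Dividing cells of the Zeb2KO library (cluster 8) had 86.1 CPM (75.4 to 97.97), and it and cluster 7 were above the endothelial level too. Of 9 clusters with at least 20 cells in both genotypes, 8 had more Ccr2 in Zeb2KO, and the exception was cluster 7 itself. Without cluster 7, a comparison added after the clusters were seen, Ccr2 was at 2.82 CPM in WT and 49.6 CPM in Zeb2KO KCs (log2 ratio 3.73).

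In CMs the share of cells with a Ccr2 UMI was 26.3% in WT (24.97 to 27.6) and 14.6% in Zeb2KO (13.5 to 15.8), and 7.54% and 3.64% after thinning. Fibroblasts left out of the same libraries had 7.39% and 2.53%, at median depths of 8240 and 7254 UMIs against 9231 and 8550 in the CMs, so the CM shares were above this background in both genotypes. Ccr2 was lower in Zeb2KO in all 12 CM clusters with at least 20 cells in both libraries, and the counting intervals were apart in 11 of them. Cluster 1, for example, was at 75.99 and 2.66 CPM, and cluster 12 at 115 and 6.65 CPM. The highest Zeb2KO levels were in 2 clusters, cluster 8 (led by Ear2, Cd209a, Ccr2 and Clec4b1), at 511 CPM in WT and 429 CPM in Zeb2KO, and cluster 5 (led by Hp, Mmp8, Ms4a1 and Ltb), at 322 and 152 CPM. Cluster 8 held 44.98% of the WT Ccr2 UMIs in 355 cells and 10.8% of the Zeb2KO UMIs in 43 cells, while cluster 5 held 77.9% of the Zeb2KO UMIs in 778 cells. By the study's account, Zeb2-/- CMs had higher Zeb2, Ms4a1 and Siglecf, and CRE-positive CMs clustering with WT cells were presumed Zeb2+/-. Cluster 5, with Ms4a1 among its leading genes, held 20.2% of the Zeb2KO CMs. In the shared clusters other than 5 and 8, Zeb2KO had 2.14 to 20.4 CPM. Whether cluster 5 holds the CMs without Zeb2 was not tested. The lower level of the library is therefore not read as that of cells without the gene. Without cluster 8 the library levels were 59.8 and 36.0 CPM, a log2 ratio of -0.72, and the 2-fold call was lost. In sums over a library or a cluster, fewer cells that express a gene and less transcript per cell cannot be told apart. As counted, without evening out depth, both were lower in Zeb2KO CMs. The share of positive cells was 26.3% in WT and 14.6% in Zeb2KO, with 3.74 and 2.57 Ccr2 UMIs per positive cell.

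**Figure D2:**
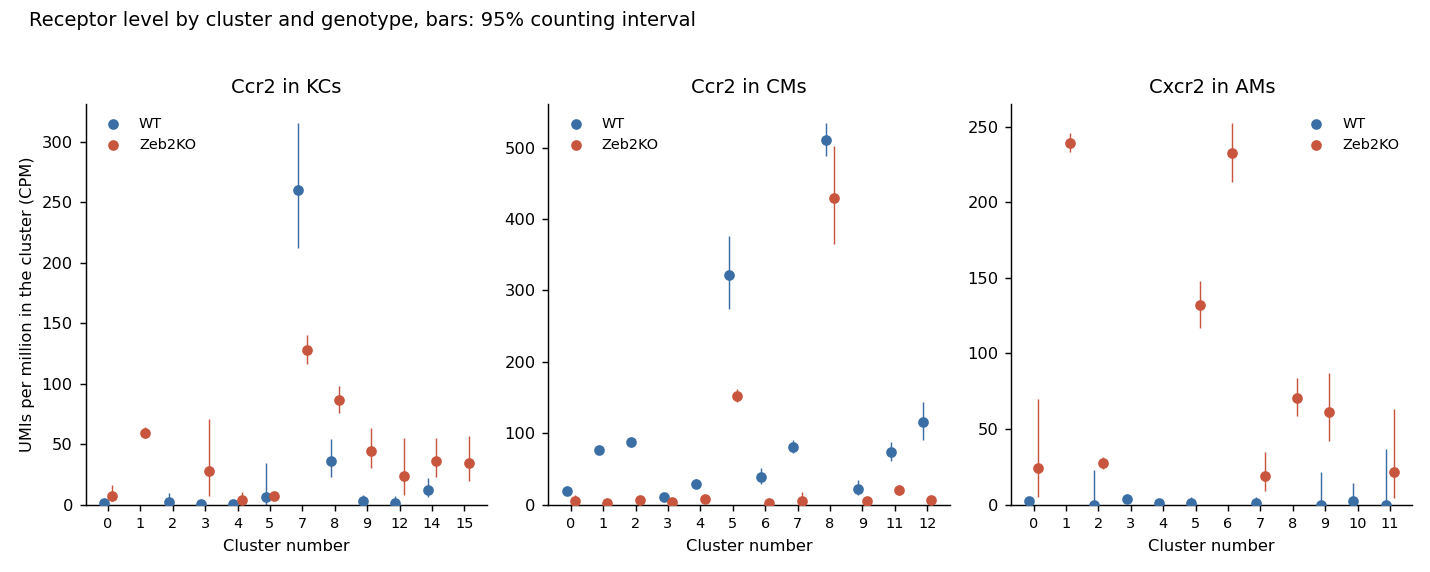
Level of Ccr2 in KCs and CMs and of Cxcr2 in AMs by cluster, in CPM, for clusters with at least 20 cells in the library (blue WT, red Zeb2KO, bars 95% counting interval). Ccr2 was higher in Zeb2KO in 8 of 9 shared KC clusters and lower in 12 of 12 shared CM clusters, and Cxcr2 in AMs reached 240 CPM in cluster 1 of the Zeb2KO library.

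Cx3cr1, the receptor for fractalkine, was the only member called in 3 tissues, and not in the same direction. In microglia, where it is a defining gene, it was at 2928 CPM in WT (2897 to 2958) and at 926 CPM in Zeb2KO (912 to 941), which is 3.16-fold lower (log2 ratio -1.66). In SMs it was at 69.5 CPM in WT (63.5 to 75.8) and 21.7 CPM in Zeb2KO (18.8 to 24.99), 3.10-fold lower (log2 ratio -1.63). In KCs it went the other way, from 7.46 CPM in Zeb2fl/fl WT (6.39 to 8.66) and 6.86 CPM in Nr1h3fl/fl WT to 72.8 CPM in Zeb2KO (69.4 to 76.2), a log2 ratio of 3.12 (3.29 without the added 1), or of 3.23 against the Nr1h3fl/fl library. CMs differed little, at 581 and 512 CPM (log2 ratio -0.18), and AMs were under the floor at 3.53 and 2.49 CPM.

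Nearly every microglial cell had Cx3cr1 in both genotypes, 99.9% of 2824 WT cells and 93.8% of 3233 Zeb2KO cells, and the positive cells held 12.8 UMIs each in WT and 5.15 in Zeb2KO. At 1000 UMIs per cell the shares were 93.1% and 56.6%. The WT clusters of at least 20 cells ran from 2073 to 3304 CPM and the Zeb2KO clusters from 593 to 1099 CPM, with no overlap, so the lower level was found in every Zeb2KO cluster of that size. No cluster of microglia held 20 cells of both genotypes, and the brain and lung libraries had no left-out type of at least 20 cells to serve as a background.

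The share of KCs with a Cx3cr1 UMI was 1.83% in WT and 19.0% in Zeb2KO (0.523% and 5.13% thinned), and 3.47% and 21.7% of the left-out endothelial cells and 2.10% and 12.5% of the B cells had one, so this share too was not above that of the endothelial cells, but was above that of the B cells in Zeb2KO by value, with intervals of 17.7 to 20.3 in KCs and 7.32 to 19.5 in B cells. The endothelial level was 10.9 CPM in WT and 74.4 CPM in Zeb2KO, close to that of the KCs of each library, while the B cells had 4.25 and 48.8 CPM. Cx3cr1 was nonetheless uneven among Zeb2KO KCs, from 9.91 CPM in cluster 14 to 231 CPM in cluster 7, with 152 CPM in the dividing cells and 139 CPM in cluster 9, the 3 clusters whose intervals lay above the endothelial level. It was higher than in WT in 8 of 9 shared clusters, with the intervals apart in 7. Cluster 7, the group with the most Ccr2, also had the most Cx3cr1 in all 3 liver libraries, at 211 CPM in Zeb2fl/fl WT and 156 CPM in Nr1h3fl/fl WT. The Zeb2KO-specific cluster 1, in contrast, had 22.7 CPM of Cx3cr1, below the 72.8 CPM of its library. Its 59.4 CPM of Ccr2 was close to the 60.4 CPM of the library, so the 2 receptors were distributed differently over the Zeb2KO clusters. As this cluster was found in the Zeb2KO library alone, no difference from WT was measured in it. Cluster 1, at 22.7 CPM, was also below the left-out endothelial cells and B cells of Zeb2KO. By the study's account, SiglecF+ KCs had deleted Zeb2 and SiglecF- KCs of CRE-positive mice were heterozygous. Whether cluster 1, led by Siglecf, holds the KCs without Zeb2 was not tested. The higher library levels of Ccr2 and Cx3cr1 in Zeb2KO KCs are therefore not read as those of cells without the gene. Leaving out cluster 7 gave 3.93 and 47.5 CPM of Cx3cr1 in WT and Zeb2KO (log2 ratio 3.30).

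At the level of cells, 214 Zeb2KO KCs had a UMI of both Ccr2 and Cx3cr1, 377 of Ccr2 alone and 502 of Cx3cr1 alone, against 16 WT KCs with both. Ccr2 was detected in 29.9% of the Cx3cr1-positive and 12.3% of the Cx3cr1-negative Zeb2KO KCs, whose median depths were 7570 and 5511 UMIs. In CMs the relation had another sign in each genotype, since Ccr2 was detected in 27.2% of Cx3cr1-positive and 19.2% of Cx3cr1-negative WT CMs but in 11.2% and 25.4% of the corresponding Zeb2KO CMs. In both genotypes the Cx3cr1-positive CMs were the deeper ones, with medians of 9713 against 6732 UMIs in WT and 9082 against 6977 in Zeb2KO.

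In CMs, 88.4% of WT and 76.2% of Zeb2KO cells had a Cx3cr1 UMI (39.7% and 34.0% thinned), above the 43.8% and 30.4% of left-out fibroblasts. Within clusters, Cx3cr1 was higher in Zeb2KO in 9 of 12 (4 with the intervals apart, against 2 lower with the intervals apart), although the level of the whole library was lower, and the Zeb2KO level was lowest in cluster 5, at 140 CPM, the cluster that held most of the Ccr2 UMIs of that library. In SMs the shares were 6.78% in WT and 4.35% in Zeb2KO (3.94% and 1.71% thinned, with 258 WT cells under 1000 UMIs left out), above 2.26% and 0.742% of left-out B cells at median depths of 2305 and 3182 UMIs against 2165 and 2684. The WT signal of the spleen lay largely in cluster 6 (led by Cx3cr1 and Pla2g2d), whose 480 WT cells had 166 CPM and held 61.0% of the UMIs, and whose 22 Zeb2KO cells had 343 CPM. Of the Zeb2KO UMIs, 55.2% came from cluster 4 (led by Il1f9 and Skint3), at 44.2 CPM. Of 7 shared SM clusters, 3 had more Cx3cr1 in Zeb2KO and 4 had less, with the intervals apart in 1 each way. Without cluster 6 the SM levels were 36.4 and 17.7 CPM, a difference that only just kept the call.

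**Figure D3:**
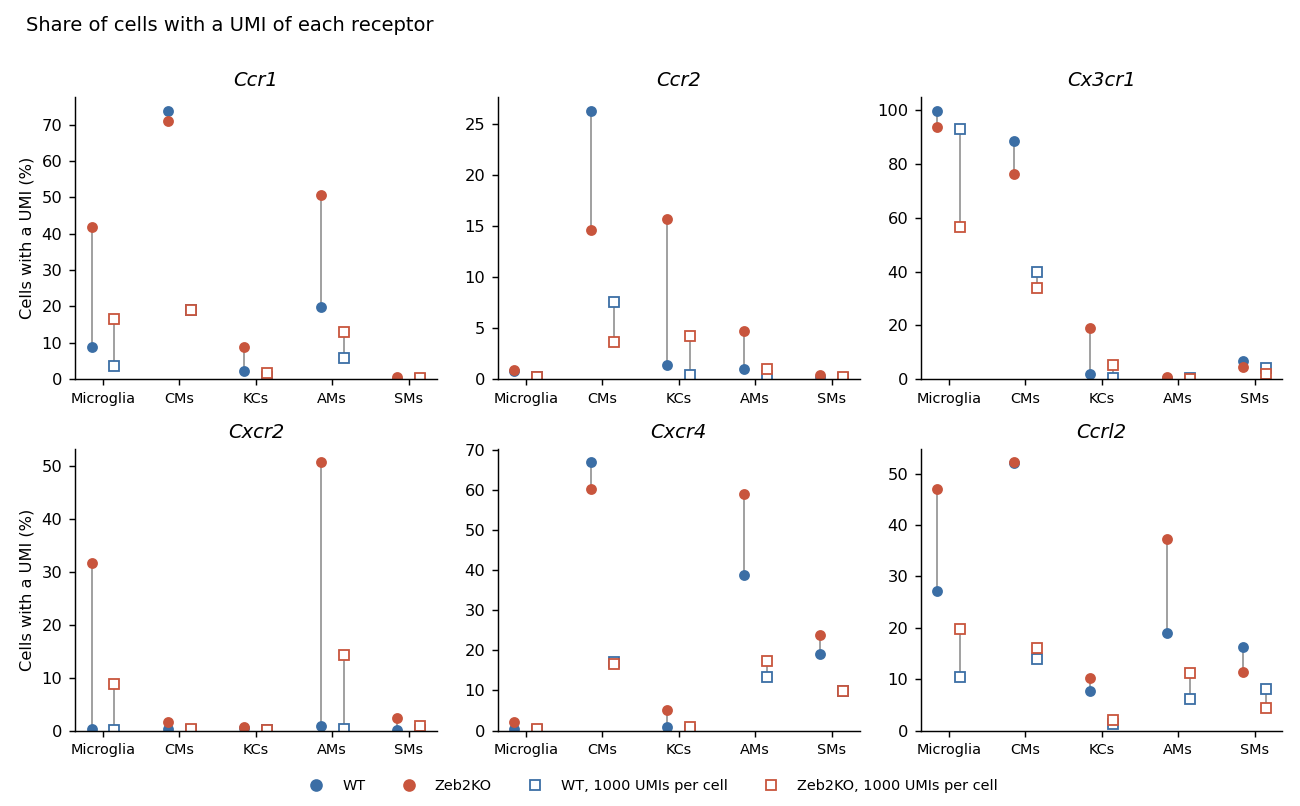
Share of cells with at least 1 UMI of each receptor by tissue, for WT (blue) and Zeb2KO (red), as counted (circles) and with every cell thinned to 1000 UMIs (open squares), with a line joining the genotypes. Cx3cr1 in microglia stood at 99.9% and 93.8% as counted and at 93.1% and 56.6% after thinning.

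Ccr1, a receptor for CCL3, CCL5 and related inflammatory chemokines, was higher in Zeb2KO microglia and AMs. In microglia it was at 41.7 CPM in WT (38.2 to 45.5) and 216 CPM in Zeb2KO (209 to 224), 5.09-fold higher (log2 ratio 2.35). In AMs it was at 59.7 CPM in WT (56.8 to 62.6) and 149.6 CPM in Zeb2KO (146 to 154), 2.48-fold higher (log2 ratio 1.31). CMs had the highest WT level, and the library levels of the genotypes differed by less than counting error, at 223 and 222 CPM. By cluster, however, Ccr1 was higher in Zeb2KO in 10 of 12 CM clusters, with the intervals apart in 5, and no cluster was lower with the intervals apart. In KCs it was at 10.8 CPM in Zeb2fl/fl WT, 1.51 CPM in Nr1h3fl/fl WT and 22.4 CPM in Zeb2KO, and the log2 ratio of 0.99 fell just short of a call. The gap between the WT KC libraries exceeded that between genotypes, and against the Nr1h3fl/fl library the ratio was 3.23. Most Ccr1 UMIs of the Zeb2fl/fl WT library came from 1 small cluster, described below. In SMs 4 UMIs were counted in WT and 24 in Zeb2KO, too few for a comparison.

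A Ccr1 UMI was seen in 8.82% of WT and 41.7% of Zeb2KO microglia (3.46% and 16.7% thinned), and in 19.7% of WT and 50.5% of Zeb2KO AMs (5.88% and 12.9% thinned). As with Cx3cr1, the genotypes did not overlap by cluster in microglia, where the WT clusters held 33.2 to 43.7 CPM and the Zeb2KO clusters 170 to 249.6 CPM. AMs were divided, since Zeb2KO cluster 1 had 175.8 CPM and held 71.2% of the Ccr1 UMIs, whereas Zeb2KO cluster 2, of 1734 cells, had 67.7 CPM (61.7 to 74.2), close to the 65.7 CPM (61.5 to 70.1) of the largest WT cluster. Of 6 AM clusters with cells of both genotypes, 4 had more Ccr1 in Zeb2KO, with the intervals apart in 2. In Zeb2fl/fl WT KCs, Ccr1 was almost confined to cluster 14 (led by Alox15 and Prg4), whose 68 cells had 250.3 CPM and held 88.4% of the UMIs. The largest cluster of that library, cluster 0, had 0.680 CPM. The Nr1h3fl/fl WT library, with 27 Ccr1 UMIs in all, had 1 cell in cluster 14. In Zeb2KO, cluster 14, of 47 cells, had 170 CPM and held 18.7% of the UMIs, while the Zeb2KO-specific cluster 1 had 24.3 CPM and held 53.1%. The ratio without cluster 14 was not computed. In CMs, 73.9% of WT and 71.1% of Zeb2KO cells had a UMI, far above the 19.3% and 18.4% of left-out fibroblasts.

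Cxcr2, the receptor of neutrophils for CXCL1 and CXCL2, had the largest genotype difference of the 6 receptors. It was nearly undetected in WT microglia, with 11 UMIs (0.894 CPM, 0.446 to 1.60), and was at 96.2 CPM in Zeb2KO microglia (1623 UMIs, 91.6 to 101), a log2 ratio of 5.68, or of 6.75 without the added 1 (counting interval 5.91 to 7.75). In AMs it was at 2.70 CPM in WT (74 UMIs, 2.12 to 3.38) and at 178 CPM in Zeb2KO (6631 UMIs, 174 to 182), a log2 ratio of 5.60, or of 6.04 without the added 1 (counting interval 5.71 to 6.39). The same direction at much lower level was seen in SMs, from 0.413 to 9.63 CPM (3 and 86 UMIs), and in CMs, from 0.233 to 2.26 CPM (10 and 82 UMIs), under the 20 CPM needed for a call. KCs had 0.911 CPM in Zeb2fl/fl WT, 0.112 CPM in Nr1h3fl/fl WT and 1.22 CPM in Zeb2KO, with overlapping intervals for Zeb2KO and the Zeb2fl/fl littermates.

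In microglia the share of cells with a Cxcr2 UMI was 0.390% in WT (0.195 to 0.696) and 31.7% in Zeb2KO (30.1 to 33.3), and 0.0909% and 8.89% after thinning. Every Zeb2KO microglial cluster of at least 20 cells had it, from 58.7 CPM in cluster 6 to 124 CPM in cluster 3, and no WT cluster of that size exceeded 3.32 CPM. AMs were more divided. Of Zeb2KO AMs 50.8% had a UMI (49.5 to 52.0), against 0.918% in WT (14.3% and 0.231% thinned), and the 3241 cells of cluster 1 (led by Cd177 and Ceacam10) had 239.5 CPM, with 76.2% of the cells positive and 81.6% of the UMIs. Cluster 2 of the same library, of 1734 cells, had 27.5 CPM and 8.71% of cells positive. By the study's account, AMs of CRE-positive mice with EpCam and CD101 had deleted Zeb2, and those without EpCam were heterozygous. Which of these clusters 1 and 2 hold was not tested. The library levels of Cxcr2 and Ccr1 in Zeb2KO AMs are therefore not read as those of cells without the gene. Among clusters of at least 20 cells, those of WT AMs stayed at or below 3.94 CPM and those of Zeb2KO AMs were above them, from 19.0 CPM upwards. In Zeb2KO SMs 90.7% of the 86 UMIs were in cluster 4, the one that also held most Cx3cr1. In Zeb2KO CMs 86.6% of the 82 UMIs were in cluster 5 (led by Hp, Mmp8, Ms4a1 and Ltb), at 9.575 CPM with 6.6% of cells positive. In Zeb2KO KCs 83.3% of the 30 UMIs were in cluster 1 (led by Siglecf), at 2.075 CPM.

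Since CXCR2 is a receptor of neutrophils, the neutrophil markers are given beside it. In AMs the summed level of the 8 listed markers went from 34.9 CPM in WT to 23652 CPM in Zeb2KO, nearly all of it S100a8 and S100a9 (22.9 and 0.0364 CPM in WT, 14190 and 9361 CPM in Zeb2KO), whereas Camp, Ngp and Mmp9 were at 0 and Ly6g was at 0.322 CPM and Retnlg at 0.134 CPM in Zeb2KO. In microglia the sum went from 196 to 364 CPM, of which Csf3r made 196 and 362 CPM, and S100a9, Retnlg, Ly6g, Camp, Ngp and Mmp9 were at 0 in Zeb2KO. Csf3r was at 12.02 and 95.96 CPM in WT and Zeb2KO AMs. Of the 8 markers, 3 were at 0 in Zeb2KO AMs and 6 in Zeb2KO microglia, while S100a8, S100a9 and Csf3r in AMs and Csf3r in microglia were higher in Zeb2KO, and the part of neutrophils in the Cxcr2 difference was not tested. Both sorts kept cells with surface F4/80 and CD64, beside CD11c and SiglecF in the lung and intermediate CD45 in the brain. How many neutrophils passed these gates was not measured.

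Likewise, Ccr2 in KCs is given beside the 7 listed monocyte markers, whose summed level was 587 CPM in Zeb2fl/fl WT, 622 CPM in Nr1h3fl/fl WT and 429 CPM in Zeb2KO, mostly Plac8, with Ly6c2 at 0.0867 CPM in Zeb2fl/fl WT and 0.447 CPM in Zeb2KO. In CMs the sum was 498 CPM in WT and 647 CPM in Zeb2KO, the direction opposite to that of Ccr2. The study defined KCs of CRE-positive mice without Siglecf and Timd4 but with Cx3cr1 and Ccr2 as Zeb2+/- putative monocyte-derived KCs. It also reported replacement of KCs from the bone marrow in chimeras. Whether KC cluster 7, with both receptors among its leading genes, holds these cells was not tested. The part of monocytes in either difference was not tested, and the sort of the CMs and SMs removed cells with surface Ly6C.

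Cxcr4, the CXCL12 receptor, was the one member not called in any tissue. It was at 198 CPM in WT and 191 CPM in Zeb2KO CMs (log2 ratio -0.05), 147 and 191 CPM in AMs (0.38) and 108 and 112 CPM in SMs (0.06). None of these 3 tissues reached a 2-fold difference, and in SMs the intervals overlapped (100.2 to 115 in WT, 105 to 119 in Zeb2KO). Under the floor, it was at 1.38 and 5.16 CPM in microglia and at 2.12 and 9.35 CPM in KCs, where the Nr1h3fl/fl library had 1.90 CPM, log2 ratios of 1.37 and 1.73 that would be calls with a floor of 5 CPM. Left-out endothelial cells of the liver had 3.27 CPM in WT and 9.44 CPM in Zeb2KO, close to the KCs. Left-out B cells there had 192.7 and 198.5 CPM. Whether the KC counts come from these cells was not tested. The share of cells with a UMI was 67.0% and 60.3% in CMs, 38.8% and 59.1% in AMs (13.5% and 17.3% thinned) and 19.0% and 23.7% in SMs, where left-out B cells, which use CXCR4 themselves, had 67.6% and 60.9% and left-out erythroid cells had 20.6% and 18.4%, so the share in WT SMs was not above that of the erythroid cells. By cluster, 10 of 12 CM clusters had less Cxcr4 in Zeb2KO, 6 of them with the intervals apart, a difference that the library level did not show, as in cluster 12, at 191 CPM in WT (159 to 227) and 90.4 CPM in Zeb2KO (75.8 to 107).

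Ccrl2, the atypical chemerin receptor, was higher in Zeb2KO microglia and AMs and tended the other way in SMs. In microglia it was at 153 CPM in WT (146 to 160) and 351 CPM in Zeb2KO (342 to 360), 2.29-fold higher (log2 ratio 1.19). In AMs it was at 69.0 CPM in WT (65.9 to 72.2) and 158 CPM in Zeb2KO (154 to 162), 2.27-fold higher (log2 ratio 1.18). In SMs it was at 96.03 CPM in WT (89.0 to 103) and 49.2 CPM in Zeb2KO (44.7 to 54.1), 1.93-fold lower, just short of a call (log2 ratio -0.95). CMs had 180 and 222 CPM (0.30), although Ccrl2 was lower in Zeb2KO in 9 of 12 CM clusters, with the intervals apart in 5, and in no cluster higher with the intervals apart. KCs had 16.0 CPM in Zeb2fl/fl WT, 8.98 CPM in Nr1h3fl/fl WT and 22.5 CPM in Zeb2KO (0.47 against the littermates).

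The share of cells with a Ccrl2 UMI followed, at 27.2% and 47.0% in microglia, 19.0% and 37.3% in AMs, 16.3% and 11.3% in SMs and 52.1% and 52.3% in CMs, with 31.2% and 30.4% in left-out fibroblasts of the colon. In the spleen 6.34% and 4.45% of left-out B cells had one, and 13.1% (8.31 to 19.4) and 10.5% (4.66 to 19.7) of left-out erythroid cells, intervals that hold the shares of the SMs. Unlike Ccr1 and Cxcr2, Ccrl2 was uneven in Zeb2KO microglia, from 72.1 CPM in cluster 3 to 840.3 CPM in cluster 6 (led by Gpnmb and Spp1), and overlapped the WT clusters, which held 86.3 to 365 CPM. In AMs the highest WT cluster was cluster 4 (led by Ereg, Cxcl10, Cxcl3 and Tnf), at 239 CPM, and the highest Zeb2KO cluster was cluster 8 (led by C1qa), at 429 CPM. In SMs 6 of 7 shared clusters had less Ccrl2 in Zeb2KO, but the intervals were apart in 1 of them only. Without spleen cluster 6 the SM levels were 112 and 49.2 CPM (log2 ratio -1.17), which would be a call.

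**Figure D4:**
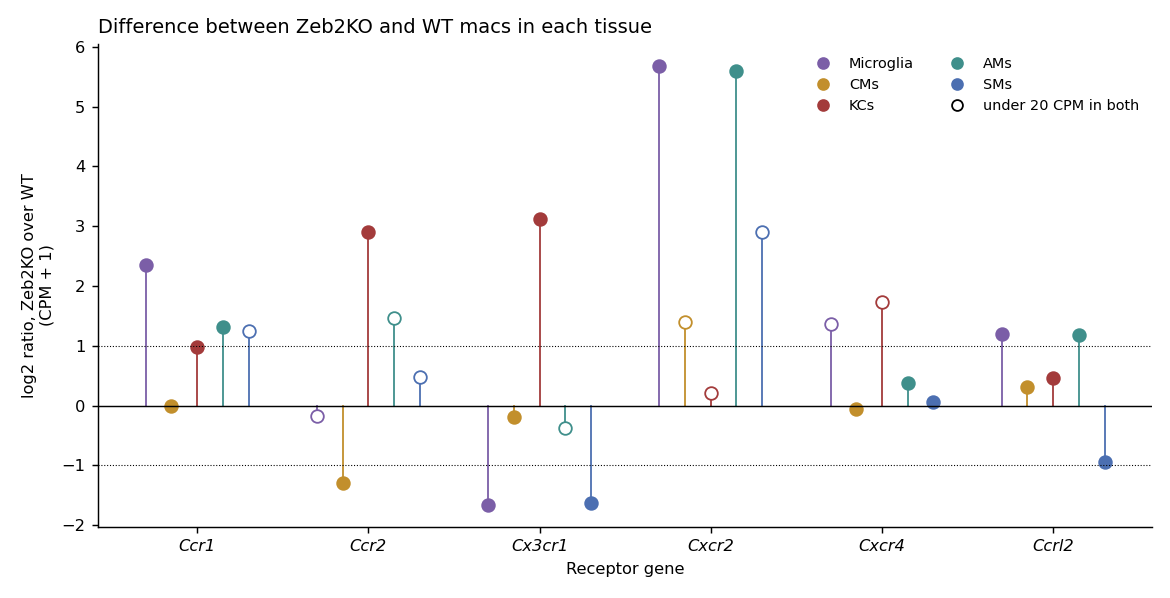
Log2 ratio of Zeb2KO over WT (CPM + 1) of each receptor in each tissue, with open points where neither library reached 20 CPM and dotted lines at a 2-fold difference. Ccr2 and Cx3cr1 have filled points beyond both dotted lines, Cxcr2 stands at 5.68 in microglia and 5.60 in AMs, and Cxcr4 has no filled point beyond either line.

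Counted over the receptors, 4 of 4 with enough UMIs were called in microglia, where 8.36% of all tested genes were called. Of these, 3 were higher and 1 was lower, against 4.24% and 4.12% of genes in those directions. In AMs 3 of 4 were called, all higher, where 11.7% of genes were called, 4.37% higher and 7.33% lower. KCs had 2 of 4 called, both higher, where 4.75% of genes were called, 3.52% higher and 1.22% lower. In CMs 1 of 5 was called, lower, where 1.56% of genes were called, 1.08% higher and 0.489% lower. SMs had 1 of 3 called, lower, where 3.47% of genes were called, 2.55% higher and 0.925% lower. All 4 receptors counted in KCs, and Cxcr2 in microglia and AMs, reached 20 CPM in the Zeb2KO library alone, so their direction was fixed by the floor, and the receptors were chosen with earlier results of these data known, so these counts are a description and no support for a difference. The same held against the Nr1h3fl/fl WT KCs, where 8.38% of genes were called and 4.3% were higher, and between the WT KC libraries no receptor reached 20 CPM, with 1.35% of genes called. The median log2 ratio of all tested genes was -0.090 in microglia, -0.308 in AMs, 0.018 in KCs, 0.052 in CMs and -0.018 in SMs. Ccr2 and Cx3cr1 were called higher in 1 tissue and lower in another, which held for 0.787% of the genes tested in at least 2 tissues (51 of 6482). Ccr1, Cxcr2 and Ccrl2 were called in microglia and AMs alone, higher in both.

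The 5 tissue pairs are the only replication of the genotype, and they were used to ask whether a receptor shifted the same way in every tissue. In edgeR's quasi-likelihood test on UMI sums with tissue as a block, 0 of the 12017 genes tested passed an adjusted p of 0.05 (0% called), 1462 genes (12.2%) had an unadjusted p under 0.05, and DESeq2 called 367 (3.05%). Cxcr2, higher in Zeb2KO in 5 of 5 tissues, had the largest common shift of the receptors, a log2 change of 4.69 (SE 1.06), with an adjusted p of 0.229 in edgeR, and Ccr1, higher in 4 of 5, had 1.34 (SE 0.38) with an adjusted p of 0.289 in edgeR. These were the 2 receptors with an unadjusted p under 0.05 in edgeR (3 in DESeq2, with Cxcr4) and the 2 that DESeq2 called, at adjusted p of 0.00033 for Cxcr2 and 0.00868 for Ccr1. The direction of Cxcr2 in KCs rests on 21 UMIs in WT and 30 in Zeb2KO, with overlapping intervals. That of Ccr1 in SMs rests on 4 and 24 UMIs. The common shift of Ccr2 was 0.96 (SE 0.75, edgeR adjusted p 0.608), from 0.22 without the liver pair to 1.71 without the colon pair, and that of Cx3cr1 was -0.27 (SE 0.75, edgeR adjusted p 0.903), each an average over tissues that went in opposite directions. Cxcr4 gave 0.82 (SE 0.37) and Ccrl2 0.52 (SE 0.36), with adjusted p of 0.44 and 0.567 in edgeR. With 1 tissue pair left out, Cxcr4 ran from 0.54 without liver to 1.09 without colon. Ccrl2 ran from 0.27 without lung to 0.87 without spleen. Because these p-values rest on 5 pairs from different tissues, they speak to a shift shared by the tissues and not to any tissue alone.

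Of the other chemokine receptors in the tables, Cxcr1, Ccr3 and Cmklr1 are described because each reached 20 CPM in some library. Cxcr1, the neighbour and paralog of Cxcr2, was at 4.55 CPM in WT and 107 CPM in Zeb2KO AMs (log2 ratio 4.28), but unlike Cxcr2 it had 0 UMIs in both libraries of microglia, which allows up to 0.244 CPM in WT and 0.178 CPM in Zeb2KO. Ccr3, the eotaxin receptor in the same gene cluster as Ccr2 and Ccr1, was at 24.8 CPM in Zeb2fl/fl WT, 37.1 CPM in Nr1h3fl/fl WT and 241 CPM in Zeb2KO KCs (log2 ratio 3.23 against the littermates), and was high in SMs of both genotypes, at 833 and 731 CPM. Cmklr1, the signalling receptor for chemerin, was 99.0 CPM in WT and 33.8 CPM in Zeb2KO microglia (log2 ratio -1.52), opposite to Ccrl2 there, and was not called in CMs, KCs or SMs.

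The ligands of the 6 receptors were also read, since macs make many of them. Of 17 listed ligands 13 reached 20 CPM in some library. In microglia 5 of 9 tested were higher and 1 lower, in AMs 7 of 9 were higher and 1 lower, in KCs 2 of 8 were higher, in CMs 1 of 12 and in SMs 1 of 4, set against 8.36%, 11.7%, 4.75%, 1.56% and 3.47% of all genes. Ccl2, the main ligand of CCR2, was at 290.3 and 1192 CPM in WT and Zeb2KO microglia and at 35.7 and 325 CPM in AMs, log2 ratios of 2.03 and 3.15. It differed by less than 2-fold in KCs, at 79.1 and 101 CPM, and in CMs, at 539.8 and 899 CPM, the tissues in which Ccr2 itself was called. Ccl7, which also binds CCR2, followed Ccl2 in microglia (12.6 to 122 CPM) and AMs (12.7 to 72.2 CPM).

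Ccl3, a ligand of CCR1, was higher in Zeb2KO in 4 of 5 tissues: 1382 and 4644 CPM in microglia, 36.6 and 199 CPM in KCs, 215 and 1076 CPM in AMs and 5.78 and 32.3 CPM in SMs. Its log2 ratios there ran from 1.75 to 2.41, and it was 0.27 in CMs. Ccl4, a related chemokine, was higher in microglia (2403 to 5799 CPM), KCs (38.2 to 203 CPM) and AMs (83.8 to 345 CPM). Ccl9, another CCR1 ligand, went in opposite directions, lower in Zeb2KO microglia (340 to 95.1 CPM, log2 ratio -1.83) and higher in Zeb2KO AMs (29.1 to 203 CPM, 2.76). Ccl9 was also 42.2 CPM in Zeb2fl/fl and 14.2 CPM in Nr1h3fl/fl WT KCs, so WT libraries differed in it as well.

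**Figure D5:**
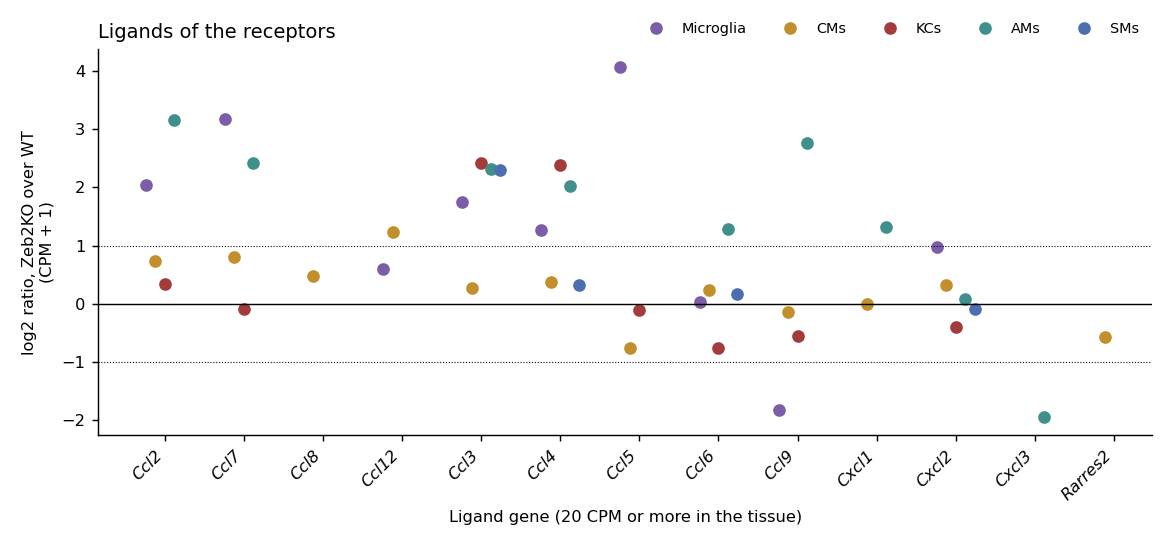
Log2 ratio of Zeb2KO over WT (CPM + 1) of the ligands that reached 20 CPM in a tissue, coloured by tissue, with dotted lines at a 2-fold difference. Ccl3 is between 1.75 and 2.41 in microglia, KCs, AMs and SMs, and Ccl9 is at -1.83 in microglia and 2.76 in AMs.

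Genes that act downstream of the receptors (G protein subunits, regulators of G protein signalling, arrestins, kinases and Rac activators) were also counted, with 0 of 17 called in microglia and in CMs, where 8.36% and 1.56% of all genes were. In KCs 1 of 17, in the lung 3 of 16 and in the spleen 1 of 18 were called, beside 4.75%, 11.7% and 3.47% of all genes. The G protein subunit gene Gng2, at 42.8 and 16.1 CPM, and the Rac activator gene Prex1, at 123 and 58.3 CPM, were called lower in Zeb2KO AMs, and the phospholipase gene Plcb2 was called higher in Zeb2KO SMs, at 13.8 and 34.2 CPM, genes named after their values were seen. Rgs1, which shortens signalling from chemokine receptors, was the gene called in KCs, at 125 CPM in WT and 466 CPM in Zeb2KO (log2 ratio 1.89), and was called in AMs too, at 72.1 and 373 CPM (2.36). It was not called in microglia (587 and 676 CPM), CMs (835 and 691 CPM) or SMs (1729 and 1354 CPM).

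Likeness of pattern was measured as Pearson's r of log2 CPM over the 11 libraries among 8014 genes, as a description only, since libraries of 1 tissue share their cell type. The genes most like Cxcr2 were Lyst (0.943), N4bp3 (0.934) and Ceacam10 (0.924), and those most like Cx3cr1 were Dnaja1 (0.961), Tspan33 (0.960) and Jun (0.952). Ccrl2 was most like Atf3 (0.962), Nt5c2 (0.960) and Chka (0.937), and Ccr1 most like Gtf2f1 (0.975), Mrpl45 (0.949) and Ndufv1 (0.949). Ccr2 was most like Rpl10a (0.948), Rpl7 (0.947) and Ufc1 (0.915), and Cxcr4 most like Vwf (0.949), Avpi1 (0.926) and Uhrf1bp1l (0.924). Among the receptors themselves r was highest between Ccr1 and Ccrl2 (0.699) and lowest between Ccr2 and Cxcr2 (-0.195).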

How the data were processed

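Sorted macs were sequenced on the 10x platform by the authors. KCs were sorted by Clec4F, AMs by CD11c and SiglecF, and microglia as CD45int cells. CMs and SMs were sorted as CD64+ F4/80+ cells negative for Ly6C, Ly6G and SiglecF. The study reported higher Siglecf in Zeb2-/- CMs and SMs, and how many such cells this gate removed was not measured. The authors aligned reads to mm10 and deposited UMI counts per gene and cell made with Cell Ranger. The labels list the same cell numbers as the barcodes found. KCs and AMs were sequenced on another instrument (NextSeq500) than the other tissues (HiSeq), so tissue and run cannot be told apart. Cell Ranger keeps uniquely placed reads, so reads shared by near-identical receptors would be lost. The deposited counts were used as they are. Barcodes beyond 3 median absolute deviations in UMIs, genes or mitochondrial share were removed (4.66 to 9.22% per library). Cells of each tissue were clustered (scanpy 1.11.5, leidenalg 0.10.2, 2000 variable genes without receptors and ligands, 30 components, 15 neighbours, resolution 0.8). Clusters with raised markers of another cell type and lowered macrophage markers, by mean fold, were left out (0.212 to 28.4% of cells, most in the spleen). The type given by this rule need not match the leading genes. The brain cluster named mast cell or basophil, for example, was led by Ifitm1, Pf4, Ms4a7 and Cd7. Doublets were not called; leaving out the 5% of cells with the most UMIs stood in for this. UMI sums per library gave CPM; ratios used CPM + 1. Thinned shares are expected shares at 1000 UMIs. The common shift was tested with edgeR 4.0.16 (TMM, filterByExpr, tissue block, Benjamini-Hochberg over all genes) and DESeq2 1.42.0, and the scripts were tested on simulated data. The labels give no replicate numbers, and each tissue holds 1 library per genotype. Receptors, ligands, signalling genes and markers were listed by name, receptors to name by value needing 20 CPM in some library and 5 ligands being named by a fixed rule; the members and lists were chosen with earlier results of these data known. Protein sequences were not used here, and 1 listed receptor is not reported here.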

Additional observations from a re-analysis of the deposited data

Results flagged for a closer look

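Ccr2 and Cx3cr1 differed between genotypes in opposite directions in different tissues. The log2 ratio of Zeb2KO over WT for Ccr2 was -1.29 in CMs and 2.90 in KCs. For Cx3cr1 it was -1.66 in microglia, -1.63 in SMs and 3.12 in KCs. With 1 library per genotype in each tissue, the difference between tissues was not tested. By the study's account, the Zeb2KO libraries of CMs, KCs and SMs mix cells with and without a functional copy of Zeb2.

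Some cells that were left out of the Zeb2KO liver library carried the same receptors above the 95% interval of the WT library. Among 479 left-out endothelial cells 6.47% had a Ccr1 UMI, 17.1% a Ccr2 UMI and 21.7% a Cx3cr1 UMI, against 0.386%, 3.86% and 3.47% of 259 endothelial cells in WT. Among 128 left-out B cells 12.5% had a Cx3cr1 UMI, against 2.10% of 143 in WT. The KCs of the same Zeb2KO library had shares of 8.80% for Ccr1, 15.7% for Ccr2 and 19.0% for Cx3cr1. The left-out cells had passed the same Clec4F sort and doublets were not called. Whether they carry transcripts of KCs was not tested.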

How the results depend on the processing

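The 11 receptor ratios called 2-fold were recomputed with another CPM floor, pseudocount or scaling and with other sets of cells, 105 alternatives in all. In 104 the call was the same, and in none did the sign turn. The floor of 5 CPM and the pseudocount of 0.1 are among these alternatives and could not remove a call. The call that was lost was that of Ccr2 in CMs without colon cluster 8, where the number of called receptors went from 1 to 0, and the number of receptors called in opposite directions went from 2 to 1. That number was 3 without spleen cluster 6, with Ccrl2, and 2 without liver cluster 7 and in the other 9 alternatives tried. Ccr1 in KCs, at 0.99, was called with all barcodes (1.04), with other cell types kept (1.01), without dividing cells (1.06), with a pseudocount of 0.1 (1.04) and against the Nr1h3fl/fl library, which gave 4 called receptors in KCs instead of 2. In SMs 2 receptors were called instead of 1, both with a floor of 5 CPM and without spleen cluster 6. For the common shift, 0 genes passed in edgeR, 367 in DESeq2, 4 with no filter, 1 without dividing cells and 0 to 1 when each tissue pair was left out (1 without the spleen pair), and DESeq2 called 2 receptors where edgeR called 0; the cause was not tested. The shift of Ccr2 was -0.0711 without the tissue block (edgeR adjusted p 0.9999), and that of Cx3cr1 ran from -0.94 to 0.15 with 1 tissue left out, above 0 without the brain pair (0.14) or the spleen pair (0.15). The labels give no replicate numbers, so the pairing used was that of the 2 libraries of a tissue. Depth limits the members with few UMIs, such as Ccr1 and Cxcr2 in WT SMs (4 and 3 UMIs). The use of all barcodes moved 23 of 66 shares of cells beyond their intervals. Thinning moved 62 of 66, but thinning lowers shares by design. That count does not show how the genotype differences depend on depth.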
